A study of Boehmeria nivea with 10 samples.

Results

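Described here are 200 soil-root contigs out of 40300 contigs named for roots of ramie (Boehmeria nivea), a nettle relative grown for its bast fibre. These 200 stood lower to a like degree at both stages of growth in water, and their number was fixed by the rule of choice. A contig is a stretch of transcript assembled from reads without a genome. The members were chosen from the measured values. Candidates were the 31098 contigs that carry no assembly cluster number, and 13171 of these had an expected count of at least 10 in all 9 libraries. Of those, 8648 had a late mean FPKM within 1.4 times of the early mean in either direction. FPKM is the number of fragments scaled to contig length and to the reads of the library. These 8648 were ranked by separation, meaning the lowest terrestrial FPKM divided by the highest FPKM of the 6 hydroponic libraries, and the first 200 were taken. Every member's level in all 9 libraries therefore entered the choice, so its fall in water and the likeness of both water stages are descriptions. Where calls from the main edgeR fit across all contigs are counted, they stand beside the share over all contigs. No call supports anything, since the same values chose the members.

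The early hydroponic group held 3 libraries of aquatic roots from 5-day-old seedlings, an early stage of root induction in water. The late hydroponic group held 3 libraries of aquatic roots from 30-day-old seedlings, a late stage of that induction, and the terrestrial group held 3 libraries of roots from 30-day-old seedlings in soil. Late hydroponic and terrestrial roots thus shared the stated seedling age, while early hydroponic roots differed from terrestrial ones in both age and medium. All groups were root RNA of the same species, with no variety or genotype stated. Nothing in the labels tells whether libraries within a group derive from different plants, so the tests measure only the spread between these libraries, which may be technical.

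Roots in soil and roots in water meet different surroundings. Soil gives mechanical contact, a mixed supply of air and water, patchy mineral nutrients and a dense microbial community. Roots formed in water often carry fewer root hairs and more air-filled tissue, and are supplied with dissolved nutrients directly. The deposited tables pair no contig with a gene name, so no member is given a function here, and root cell type markers could not be looked up. Because these are bulk tissue samples, fewer cells of a type and less RNA per cell cannot be told apart in any level below.

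The listed expected counts summed to between 9499903 and 11522430 per library, and 33480 to 35313 contigs were listed. Terrestrial replicate 2 stood apart from terrestrial replicates 1 and 3, with a chi-square per degree of freedom of 24.2 and 27.9 against them, where those differed from each other by 8.01. Late hydroponic replicate 3 differed from late replicates 1 and 2 by 36.4 and 24.1, and these differed from each other by 22.4. The widest late difference was thus between replicates 1 and 3, and no late library stood apart as clearly as terrestrial replicate 2. Some values that turn on terrestrial replicate 2 or late replicate 3 are given without that library as well, beside the result. This was not done for every contig.

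Over the 200 contigs the median FPKM was 8.31, 10.3 and 9.45 in early hydroponic replicates 1, 2 and 3. It was 8.92, 11.2 and 8.94 in the late hydroponic ones and 53.7, 58.6 and 48.6 in the terrestrial ones. The 6 hydroponic medians thus lay within a narrow band, and each terrestrial median was more than 4 times as high. The mean terrestrial FPKM of a member was a median of 4.73 times its mean over the 6 hydroponic libraries, with quartiles of 3.99 and 6.43 and a range from 2.97 to 30.3. It was at least 5 times as high in 91 members, at least 10 times in 15 and at least 20 times in 2. The separation ran from 2.5743 at the last rank to 18.0 at the first, with a median of 3.16. It reached 3 in 122 members, 4 in 52, 5 in 26 and 10 in 3.

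**Figure D1:**
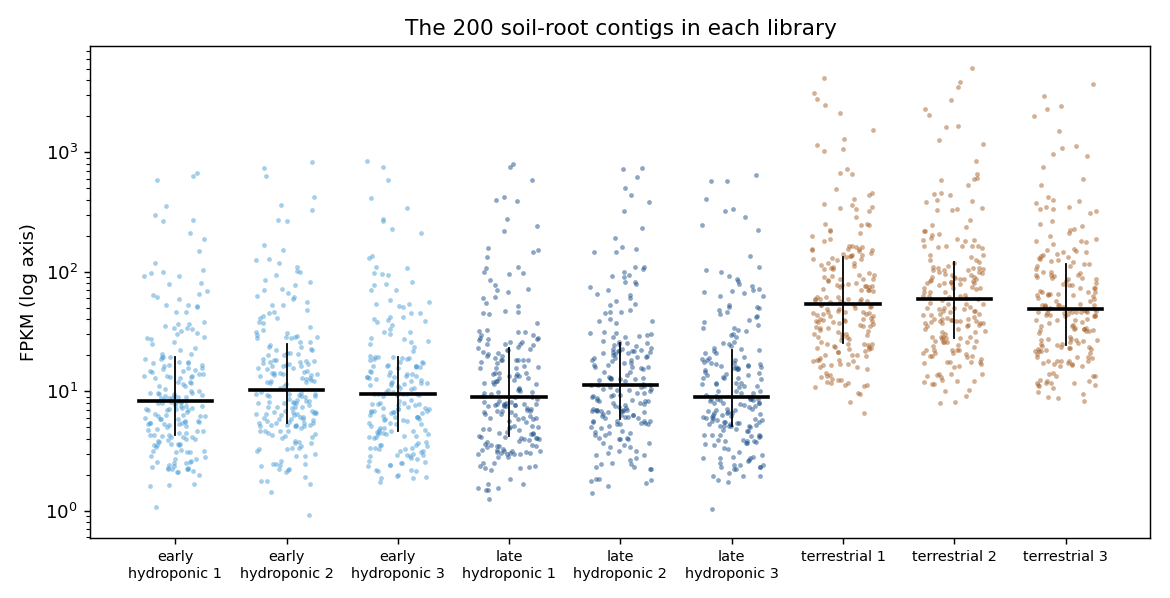
FPKM of each of the 200 contigs (points, log axis) in each of the 9 libraries, with the median (thick bar) and quartiles (thin line). The terrestrial medians lie between 48.6 and 58.6 FPKM and the hydroponic ones between 8.31 and 11.2.

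The members spanned a wide range of levels. Terrestrial means ran from 8.25 to 4312 FPKM, with 59 members under 30 FPKM, 80 from 30 to under 100 and 61 at 100 or more. Hydroponic means were under 5 FPKM in 48 members, from 5 to under 20 in 96 and at 20 or more in 56. The median fold was 4.40, 4.78 and 5.32 in members of low, middle and high terrestrial level. Every member passed the same separation, and the terrestrial level is part of the fold, so nothing is read from these values. The lowest expected count was under 20 in 31 members (15.5%) and in 11.6% of the other contigs in the window. Contigs that reach almost no reads in water could not enter, because of that minimum. With a minimum of 1 count instead, 308 unclustered contigs in the same late to early window reached the separation of the last member.

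As part of all root RNA, the members were a minor fraction in water and a larger one in soil. Their FPKM summed to 5.47, 6.20 and 4.96% of the library total in terrestrial replicates 1, 2 and 3. In the early hydroponic libraries they made up 0.923, 1.05 and 0.973%, and in the late hydroponic ones 1.03, 1.09 and 0.939%. The group means were 5.55 ± 0.625% in terrestrial, 0.982 ± 0.0645% in early hydroponic and 1.02 ± 0.0776% in late hydroponic roots (SD, n = 3). The terrestrial mean was 5.22% without terrestrial replicate 2, and the late mean was 1.06% without late replicate 3. The 5 most abundant members supplied 38.5 ± 0.798% of the members' terrestrial FPKM (SD, n = 3). Without those 5, the remaining members still made up 3.08 to 3.76% of the terrestrial libraries and 0.597 to 0.720% of the hydroponic ones.

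Unigene2257_mixA, a contig of 2484 bases, had the widest separation. It stood at 179.74, 138.00 and 97.50 FPKM in terrestrial replicates 1, 2 and 3, at 5.42, 5.11 and 5.37 in the early hydroponic ones and at 3.14, 4.06 and 4.27 in the late hydroponic ones. Its lowest terrestrial value was 18.0 times its highest hydroponic one. All 3 late values also lay below all 3 early ones, and its late to early ratio of 0.721 was the lowest among the members, just above the lower end of the window (0.714). Its fitted log2 change from terrestrial roots was -4.47 ± 0.25 (SE) early and -5.09 ± 0.26 late.

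Unigene12540_mixA (989 bases) stood at 90.11, 99.47 and 73.41 FPKM in the terrestrial libraries, at 3.73, 6.79 and 6.14 in the early and at 3.82, 4.62 and 7.12 in the late hydroponic ones. Early and late values interleaved, and soil roots were 16.3 times the hydroponic mean. Unigene4174_mixA (844 bases) was less abundant, at 34.27, 40.25 and 39.27 FPKM in soil, 1.67, 3.16 and 2.42 early and 3.05, 3.42 and 2.22 late. Its hydroponic ranges overlapped as well, and its lowest count was 16, close to the minimum of the rule. Unigene14262_mixA (1338 bases) had 111.06, 120.62 and 87.24 FPKM in soil, 3.64, 8.57 and 7.17 early and 4.54, 9.04 and 7.60 late. In both water groups its replicate 1 was the lowest and its replicate 2 the highest.

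Unigene31902_mixA (631 bases) was among the steadiest in soil, at 97.22, 98.99 and 93.69 FPKM, against 5.40, 8.31 and 7.85 early and 7.12, 10.84 and 7.76 late. Its terrestrial libraries differed by 1.06 times from highest to lowest, less than its hydroponic ones did. Unigene15106_mixA (568 bases) stood at 39.90, 43.87 and 32.89 FPKM in soil, at 4.13, 3.68 and 4.15 early and at 3.89, 2.89 and 2.30 late. Its late mean was 0.759 of its early mean, with late replicate 1 inside the early range. Unigene26544_mixA (1902 bases) was uneven in every group, at 148.13, 67.08 and 125.76 FPKM in soil, 2.49, 7.90 and 4.87 early and 4.38, 9.11 and 4.64 late. Replicate 2 was its lowest terrestrial library and its highest library in each of the water groups.

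Unigene4535_mixA (1654 bases) stood at 56.62, 79.04 and 46.15 FPKM in soil, 4.25, 4.61 and 2.73 early and 3.50, 6.34 and 3.79 late. None of its 9 expected counts was a whole number, so some of its reads were divided with other contigs. Unigene2447_mixA (1593 bases) joined a high level to a wide separation, at 2507.58, 2324.13 and 2285.99 FPKM in soil, 212.46, 271.62 and 228.39 early and 276.98, 320.85 and 223.20 late. Soil roots held 9.28 times the hydroponic mean of this contig, and its hydroponic ranges overlapped. Unigene19600_mixA (571 bases) had 1300.37, 2056.88 and 1121.06 FPKM in soil, 98.48, 100.36 and 94.42 early and 158.41, 154.70 and 91.59 late. Late replicates 1 and 2 lay above the early libraries while late replicate 3 lay below them, and the late to early ratio of 1.38 was near the upper end of the window.

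**Figure D2:**
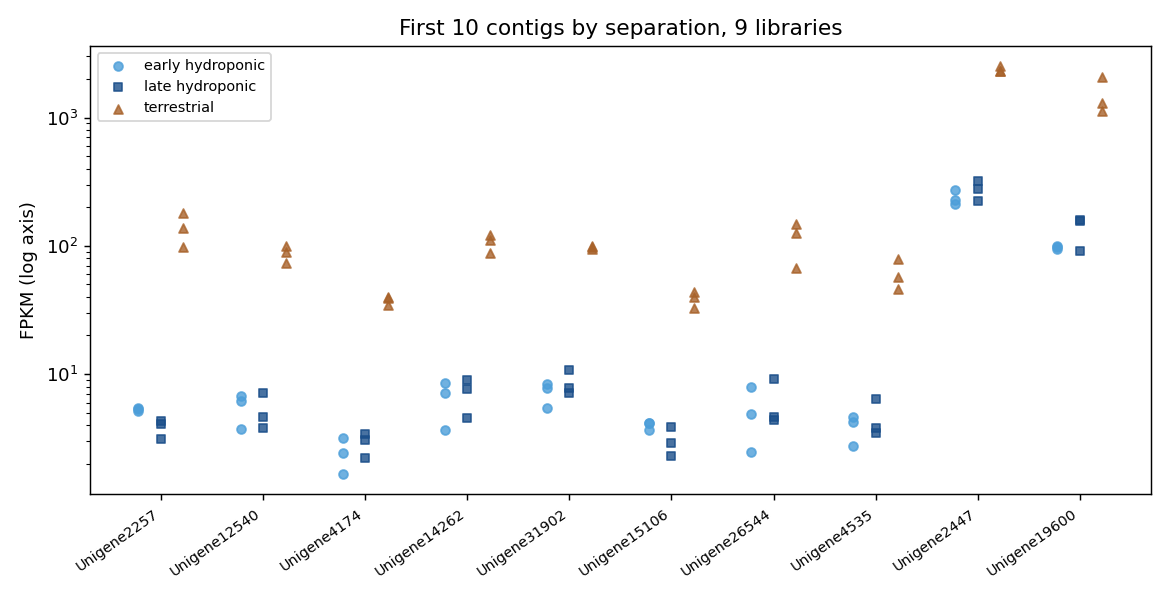
FPKM (log axis) of the 10 contigs with the widest separation in each of the 3 early hydroponic (circles), 3 late hydroponic (squares) and 3 terrestrial libraries (triangles). The terrestrial values lie above all 6 hydroponic ones in each contig, as the ranking requires, and early and late values interleave in most.

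Among the 5 members of highest terrestrial level, Unigene28156_mixA (1680 bases) led with 4169.53, 5053.83 and 3711.69 FPKM in soil, and had 591.64, 634.40 and 584.19 early and 795.02, 727.03 and 576.32 late. It remained abundant in water, at a soil to hydroponic fold of 6.62, and none of its 9 expected counts was whole. Unigene1895_mixA (1062 bases) stood at 3320.1 ± 472 FPKM in terrestrial, 768 ± 119 in early and 713 ± 53.8 in late hydroponic roots (SD, n = 3). Unigene26893_mixA (1889 bases) stood at 2937 ± 561, 720.1 ± 45.8 and 593 ± 22.4 FPKM in the same order (SD, n = 3). Its 3 late values, from 578.54 to 618.57 FPKM, all lay below its 3 early ones, from 667.39 to 750.57, and none of its 9 counts was whole. Unigene922_mixA (1163 bases) stood at 2311 ± 394, 287 ± 37.2 and 387 ± 57.7 FPKM (SD, n = 3), with late replicate 3 (325.36) inside the early range. The fifth was Unigene2447_mixA, described above.

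The members were shorter than the other contigs in the window by the median. Their median length was 1079 bases, with quartiles of 648 and 1836 and a range from 211 to 4389, where the 8448 other contigs in the window had a median of 1411 and reached 15684 bases. Of the members 17.5% were under 500 bases against 10.3% of the others. Expected counts were whole in all 9 libraries for 160 members (80%) and for 85.5% of the others, taking a value within 0.005 of a whole number as whole. The other 40 members shared some reads with other contigs, and their levels depend on how those reads were divided. A contig can be a fragment of a transcript, so 200 contigs need not be 200 genes.

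The soil to hydroponic folds of the 5 longest members lay from 3.801 to 4.84, where the median over all members was 4.73. Unigene4347_mixA (4389 bases) stood at 24.41, 20.59 and 22.92 FPKM in soil, 5.88, 4.66 and 4.48 early and 6.81, 6.91 and 5.28 late. Unigene3312_mixA (4136 bases) stood at 44.41, 49.40 and 35.29 FPKM in soil, 8.76, 7.89 and 7.26 early and 10.13, 11.56 and 10.08 late, so that each late value exceeded each early one. Unigene18291_mixA (3954 bases), Unigene3490_mixA (3933 bases) and Unigene29659_mixA (3651 bases) had soil to hydroponic folds of 4.84, 3.91 and 3.801. The folds of Unigene4347_mixA and Unigene3312_mixA were 3.99 and 4.64. All 5 had whole counts in 9 of 9 libraries.

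The fit across all contigs gave the fall the same median size at both stages, and the window had already limited how far these could differ. The median log2 change of the members was -2.12 in late hydroponic against terrestrial roots, with a range from -5.09 to -1.47. It was -2.12 in early hydroponic against terrestrial roots as well, ranging from -4.47 to -1.23. Over all 26747 contigs tested the medians were 0.02 and -0.09. With scaling by library totals alone, the members' medians were -2.2 late and -2.35 early. All 200 members were called lower in late hydroponic roots by edgeR (quasi-likelihood test, Benjamini-Hochberg adjusted p under 0.05), where 24.2% of all contigs tested were. All 200 were also called lower in early hydroponic roots, against 31.0% of all contigs tested. Since the rule used these contrasts, which also share their 3 terrestrial libraries, nothing is read from these counts. Having all 3 terrestrial libraries above all 6 hydroponic ones, which each member has by the ranking, was met by 2912 of the 8648 contigs in the window (33.7%).

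**Figure D3:**
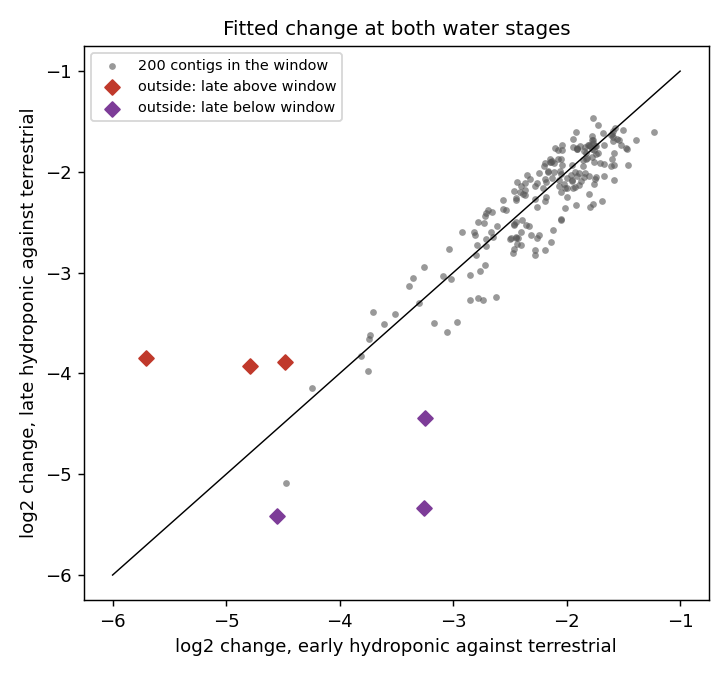
Fitted log2 change against terrestrial roots in early (x axis) and late hydroponic roots (y axis) for the 200 contigs (grey) and for 6 contigs of at least the same separation outside the late to early window (diamonds). The line marks equal change; the rule keeps the grey points near it, and the axes share the terrestrial libraries.

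Between the water stages, 0 of the 200 were called changed by edgeR, against 14.7% of all contigs tested, and the rule limited this contrast. Among the 8448 other contigs in the window, which met the same limit, 276 (3.27%) were called, 274 of them lower late. The window was set on FPKM, while the edgeR fit used TMM scaling. On the scale of the fit these contigs ran from log2 -0.63 to 0.36, further down than up. The direction of calls within the window is therefore not read, for the members either. At an unadjusted p under 0.05 there were 9 members (4.5%), 1 of them higher late, against 31.0% of all contigs tested. The shares over all contigs tested include contigs outside the window. DESeq2 called 6 and limma on log2(FPKM + 1) called 0. Without late replicate 3, edgeR called 5, all lower late. No share over all contigs stands beside the counts of these other settings, so nothing is read from them. A missing call does not show that a contig had equal levels, and the median SE of the late to early log2 change was 0.23. The fitted change was within 0.5 in 189 members and ran from -0.61 to 0.34.

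The window limited the group means only, so the single libraries show how far the stages overlapped. Early and late ranges overlapped in 172 members (86.0%), every late library was above every early one in 23 (11.5%), and every late library was below every early one in 5 (2.5%). Among the other contigs in the window these shares were 75.3, 15.5 and 9.16%. The median late to early ratio was 1.09 for the members and 1.05 for the others on the FPKM scale, and 0.982 and 0.955 on the TMM scale. The late mean was the higher one in 132 members by FPKM but in 93 by TMM-scaled values, so the direction of this small difference depended on the scaling. By the median, the members were less even than the other contigs within late hydroponic roots, with a median coefficient of variation of 20% against 13.2%. In early hydroponic roots it was 13.3% against 10.2%, and in terrestrial roots 13.2% against 12%. Without late replicate 3 the late values were 14.9% against 10.1%, and without terrestrial replicate 2 the terrestrial ones were 6.29% against 6.93%, so that the order in soil turned. The settings without late replicate 3 and without terrestrial replicate 2 were chosen after seeing the data. Without late replicate 1 the late values were 16.6% against 10.1%, and without late replicate 2 they were 16.2% against 12.2%. Coefficients without a library rest on fewer libraries than those of the full groups, and their median tends to be lower for that reason alone. Only members and others under the same setting can therefore be compared. The members' median hydroponic levels were lower than those of the others, at 9.81 FPKM early and 9.91 late against 15.1 and 15.9, and the part of level in this spread was not tested.

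At the upper end of the window stood Unigene20268_mixA (411 bases), with 37.43, 49.77 and 36.00 FPKM in soil, 6.99, 9.55 and 7.93 early and 11.83, 13.12 and 9.30 late. Only its late replicate 3 reached into the early range. Unigene12612_mixA (1043 bases) had a late to early ratio close to that limit without overlap, at 2.27, 2.45 and 3.12 FPKM early, 4.01, 3.66 and 3.27 late and 13.11, 22.26 and 14.32 in soil. Unigene24162_mixA (2611 bases) had a ratio of 1.39 with wide overlap, at 1.97, 5.06 and 1.91 FPKM early, 4.05, 5.64 and 2.74 late and 30.30, 46.36 and 23.91 in soil. Its replicate 2 was the highest in each group, and its early log2 change moved from -3.26 to -3.88 without early replicate 2.

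At the lower end, after Unigene2257_mixA, came Unigene8504_mixA (874 bases), with 2.22, 7.93 and 3.34 FPKM early, 1.53, 2.44 and 5.85 late and 24.89, 23.24 and 24.43 in soil. Its soil level was nearly constant while its water level varied several-fold in both groups. Its log2 change was -2.77 late and -3.55 without late replicate 3, and -2.19 early and -2.88 without early replicate 2. Unigene26104_mixA (875 bases) had 3.43, 3.25 and 3.14 FPKM early, 3.05, 2.32 and 1.80 late and 11.72, 13.36 and 12.31 in soil, with all 3 late values below the early ones.

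Within soil roots the members were mostly highest in terrestrial replicate 2. This library was the highest of the 3 in 116 members (58.0%), replicate 1 in 57 and replicate 3 in 27. Among the other contigs in the window the shares were 30.4, 26.8 and 42.9%. By TMM-scaled values terrestrial replicate 2 was highest in 133 members and in 39.1% of the others. It lay at least 1.5 times above the mean of the other two terrestrial libraries in 24 members and at least 1.5 times below it in 10. Of the other contigs in the window, 2.97% lay as far above. No share of the others was taken for the lower side, so nothing is read from the 10.

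By FPKM, replicate 2 was also the highest library of its group for most members in water. Early replicate 2 was the highest of its group in 119 members (59.5%) and in 25.9% of the other contigs, and late replicate 2 in 117 (58.5%) and 41.0%. By TMM-scaled values these were 127 members against 29.6% and 86 members against 27.3%, so that late replicate 2 was then highest in fewer members than the other two late libraries together. In 47 members (23.5%) replicate 2 was the highest in all 3 groups, as in 3.8% of the others. Replicate 1 was so in 0 members and in 3.1% of the others, and replicate 3 in 1 member and in 8.1% of the others. By TMM-scaled values, replicate 2 was the highest in all 3 groups in 40 members and in 3.94% of the others. The members' higher shares for replicate 2 within each single group by themselves raise the share in all 3 groups. Whether the groups moved together beyond that was not tested. No label says what a replicate number shares across groups. What lies behind this lean to replicate 2 was not tested.

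**Figure D4:**
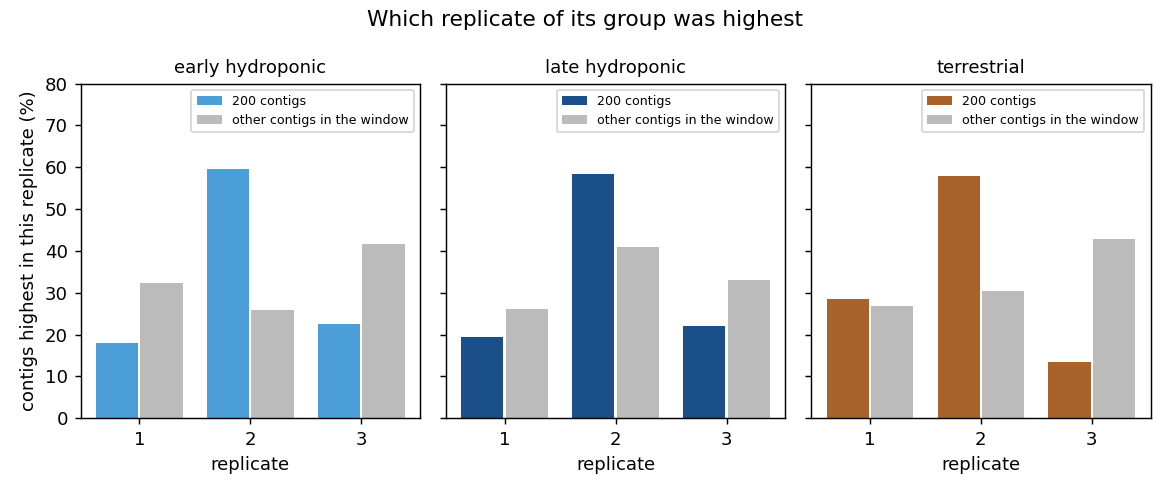
Share of contigs (%) for which each replicate had the highest FPKM of its group, for the 200 contigs (coloured) and the other 8448 contigs in the window (grey). Replicate 2 is the highest for 59.5, 58.5 and 58.0% of the 200 in early hydroponic, late hydroponic and terrestrial roots.

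Unigene5635_mixA (311 bases) had the most uneven soil level, at 92.90, 184.47 and 63.66 FPKM in terrestrial replicates 1, 2 and 3, against 8, 16.13 and 14.52 early and 22.28, 18.34 and 13.03 late. Its log2 change was -2.60 late and -2.92 early, and -2.02 and -2.34 without terrestrial replicate 2. Unigene6601_mixA (995 bases) stood at 61.25, 111.30 and 52.00 FPKM in soil, 9.61, 9.06 and 10.71 early and 15.92, 12.92 and 11.10 late, again with terrestrial replicate 2 far above the rest. Its log2 change was -2.41 late and -2.71 early, and -1.98 and -2.27 without that library. The other uneven member was Unigene26544_mixA, where that library was the lowest instead.

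The steadiest members in soil differed by a few percent among terrestrial libraries. Unigene32684_mixA (585 bases) stood at 36.78, 36.92 and 37.68 FPKM in soil, 9.55, 12.18 and 12.76 early and 5.56, 8.82 and 12.86 late. Unigene20875_mixA (540 bases) had a like profile, with 26.87, 27.84 and 27.46 FPKM in soil, 8.14, 8.12 and 7.08 early and 4.03, 6.82 and 9.10 late. In both, late replicate 1 was the lowest and late replicate 3 the highest of the 6 hydroponic libraries, and counts were whole in 2 of 9 libraries. The late to early log2 change of Unigene32684_mixA was -0.47, and -0.93 without late replicate 3, where edgeR called it lower late. Unigene12595_mixA (1970 bases) was steady in every group, at 187.23, 184.99 and 181.70 FPKM in soil, 50.43, 52.32 and 51.50 early and 54.59, 60.55 and 53.08 late.

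Libraries left out of the choice gave the only values that the rule had not used. For each library in turn, 200 contigs were chosen by the same rule from the other 8, and the library left out was then read. In 8 of the 9 cases all 200 lay on the side of its group, that is, below the lowest terrestrial library when a hydroponic one was left out, or above the highest hydroponic library when terrestrial replicate 1 or 3 was. With terrestrial replicate 2 left out, 197 of 200 did. Among all contigs that entered the ranking, the same held for 38.7 to 49.3%. The median fold between terrestrial and hydroponic level in the library left out was 4.38 to 4.91 for the terrestrial and 4.10 to 6.05 for the hydroponic libraries. Before ranking it was 1.01 to 1.13. The contigs before ranking were not chosen for separation, so the gap between them and the 200 follows largely from the choice. A wide separation in the other 8 libraries left little room for another outcome, and nothing is read from this gap. The 200 chosen each time held 147 to 189 of the members. The libraries left out belong to the same groups as those used, so the counts describe how alike libraries of a group were.

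The 3 exceptions, Unigene3796_mixA, Unigene23426_mixA and Unigene1985_mixA, were named after their values were seen, and none is among the 200. Unigene3796_mixA (447 bases) had 22.84 and 31.26 FPKM in terrestrial replicates 1 and 3 but 5.81 in replicate 2, within its hydroponic range of 4.55 to 7.48. Unigene23426_mixA (1729 bases) had 32.81 and 35.60 FPKM against 5.91 in replicate 2, and Unigene1985_mixA (821 bases) had 25.50 and 27.24 against 4.92. In all 3 contigs the value of terrestrial replicate 2 lay within the hydroponic range.

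**Figure D5:**
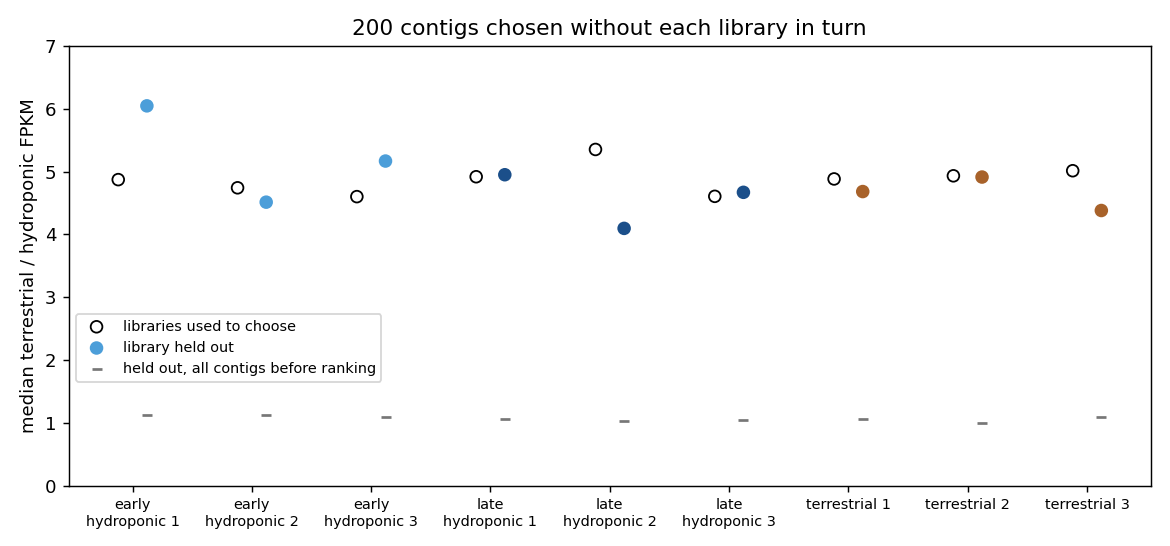
Median ratio of terrestrial to hydroponic FPKM of 200 contigs chosen without the library on the x axis, in the libraries used for the choice (open circles), in the library left out (filled) and, for that library, over all contigs before ranking (grey dashes). The filled points lie between 4.10 and 6.05 and the dashes between 1.01 and 1.13. Only the 200 were chosen for separation.

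The boundary of the set was gradual. Just inside stood Unigene17281_mixA, Unigene33235_mixA and Unigene10142_mixA, with separations of 2.584, 2.576 and 2.5743. Just outside stood Unigene29474_mixA, Unigene21632_mixA and Unigene22537_mixA, with 2.5736, 2.567 and 2.562. Unigene10142_mixA (950 bases) had 76.82, 57.69 and 62.91 FPKM in soil and 14.61 to 22.41 in water. Unigene29474_mixA (853 bases) had 929.73, 1022.65 and 831.59 FPKM in soil and 196.71 to 323.12 in water, a profile of the same kind at a higher level.

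Many contigs with as wide a separation were left out because the water stages differed. Of 361 unclustered contigs that passed the count minimum and reached the separation of the last member, 139 (38.5%) had a late mean above the window and 22 (6.09%) had one below it. Among all 13171 contigs passing the count minimum, 23.7% lay above and 10.6% below. The first above it were Unigene22817_mixA, with 302 ± 19.1 FPKM in soil, 9.29 ± 0.163 early and 18.5 ± 2.38 late, then Unigene16673_mixA and Unigene30825_mixA (SD, n = 3). The first below it were Unigene20177_mixA, with 612 ± 70.5 FPKM in soil, 22.2 ± 10.7 early and 13.5 ± 1.59 late, then Unigene23587_mixA and Unigene27233_mixA (SD, n = 3). Unigene23587_mixA had late values of 1.32, 1.65 and 14.40 FPKM, and its late log2 change of -5.33 was -7.36 without late replicate 3. Of 3207 contigs with a cluster number in the window, 81 (2.53%) reached the same separation, a share near the 2.31% that the members make up of the unclustered ones. In the opposite direction, with all hydroponic libraries above all terrestrial ones, 297 unclustered contigs in the window reached it.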

How the data were processed

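Per the series' design text, 1 pooled root sample was assembled de novo, and the 9 separate samples were quantified against it. The pool was not analysed here. Per the labels' protocols, RNA was isolated with Trizol. The aligner, counter and their versions are not given in the sources used here. Per the file headers, the authors' deposited tables hold a contig's length in bases (another kind of value than a level), its expected count and its FPKM. A contig unlisted in a library was entered as 0. That it had no reads is an inference, and no member is affected.

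Deposited expected counts were rounded to whole numbers; the test was that of edgeR 4.0.16, under R 4.3.3 (TMM, filterByExpr with minimum count 10, robust quasi-likelihood, 3 groups fitted together, Benjamini-Hochberg). SE is the absolute log2 change over the square root of F. Ranks and levels used deposited FPKM; TMM-scaled values are CPM per kilobase. DESeq2 1.42.0 and limma 3.58.1 were alternatives. Depth was 9499903 to 11522430 counts per library. The code of the fits was tested on simulated counts. Replicate numbers were not taken to pair libraries.

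Members and lists were chosen with earlier results of these data known. Named contigs were the first 10 by rank, the 5 of highest terrestrial mean, the 5 longest, the 3 at each end of late to early ratio and of terrestrial evenness, ranks 198 to 203, and the first 3 on each side outside the window.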

Additional observations from a re-analysis of the deposited data

Results flagged for a closer look

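Of the 6 contigs named outside the late to early window, 3 passed the late against early test of edgeR and 3 did not. A difference between the stages was how these contigs were chosen, so their changes are descriptions and the calls show nothing further. Among those that passed, the late against early log2 change was 0.86 ± 0.14 (SE) in Unigene22817_mixA, 1.85 ± 0.32 in Unigene30825_mixA and -1.19 ± 0.25 in Unigene27233_mixA. Among those that did not, it was 0.59 ± 0.23 in Unigene16673_mixA, -0.86 ± 0.3 in Unigene20177_mixA and -2.07 ± 0.8 in Unigene23587_mixA.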

How the results depend on the processing

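All 200 contigs were called lower at both water stages under every alternative run, including the replicate block, DESeq2, limma and each library left out. The choice of members by their separation left little room for another outcome, so this is no sign of stability. With the replicate block, the counts were 200 late, 200 early and 0 between the stages. Replicate numbers were not taken to pair libraries because no label says what a number shares. Over all contigs tested, deviations of same-numbered libraries from their group means correlated by -0.093 to 0.135. These correlations were not taken for the members alone. Between the stages, the count of members rose from 0 to 1 with DESeq2's size factors in edgeR and to 6 with DESeq2, and ran from 0 to 5 with single libraries left out (5 without late replicate 3, 1 without terrestrial replicate 2 and 1 without terrestrial replicate 3). These counts have no share over all contigs under the same setting beside them, so nothing is read from them. The median log2 change early against terrestrial was -2.35 with library totals alone and -2.34 with limma on log2(FPKM + 0.1), and -2.18 to -2.03 with single libraries left out. The late median ranged from -2.20 to -2.03 with single libraries left out. The late against early median was 0.12 with library totals alone, 0.11 with limma on log2(FPKM + 1) or log2(FPKM + 0.1), and -0.15 to 0.06 with single libraries left out. The cause was not tested. Membership depended on the rule: 121 of the 200 were still chosen with a late to early ratio within 1.2, 121 with a minimum count of 1 and 120 with a minimum count of 50, and 147 to 189 with single libraries left out. With TMM-scaled values and terrestrial replicate 2 left out, 99% of the chosen contigs lay on its side, against 98.5% by FPKM. The members' FPKM share was 5.22 to 5.84% in terrestrial, 0.948 to 1.01% in early and 0.983 to 1.06% in late hydroponic roots with single libraries left out. Low counts limit members near the minimum of 10.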
